A study of Mus musculus with 8 samples.

Results

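Transcripts of 10 genes that mark the oligodendrocyte lineage, from precursor cell to myelinating cell, were followed in the aging mouse brain. The genes Pdgfra, Cspg4, Olig1, Olig2, Sox10, Bcas1, Enpp6, Gpr17, Neu4 and Myrf were taken by symbol from a table of 22430 genes, and all 10 were among the 16730 genes with enough counts to be tested. RNA came from brain hemispheres, labelled as whole brain, of male C57Bl/6JRj mice with no treatment or transgene stated. The 2 ages were 6 months (6m, 4 mice) and 24 months (24m, 4 mice), with 1 poly(A) library from each mouse. Each library is a whole tissue lysate that mixes all brain cells, so that fewer cells of a type and less RNA per cell cannot be told apart.

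Oligodendrocytes wrap axons in myelin and arise throughout adult life from precursor cells that carry the receptor for platelet-derived growth factor (PDGF) and the NG2 proteoglycan. Precursors that leave the cycle pass through a short committed and newly formed stage, with its own set of transcripts, before they turn on the genes of compact myelin. The transcription factors Olig1, Olig2 and Sox10 act along the whole path, and Myrf is needed for the last step.

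At 24m, 4 of the 10 genes were called higher and 0 lower. A gene was called at an adjusted p of at most 0.05 together with a log2 fold change of at least 0.58 in either direction. At an unadjusted p under 0.05, 1 gene was lower, Neu4, and under DESeq2 on the counts as deposited 0 were called lower. The genes called higher were Pdgfra, Sox10, Gpr17 and Myrf, one from each functional group described here. Among all genes tested 25.3% were called higher and 18.3% lower, and that balance moved with the scaling. Those counts of all genes were 4237 and 3058, against 5449 and 1746 with totals alone, 3573 and 3891 under DESeq2 on quantile-normalized counts, 3600 and 2836 with the length trend removed and 3875 and 3339 with the GC trend removed. An adjusted p of at most 0.05 was reached by 7 of the 10 genes, against 62.6% of all genes, and the libraries of the ages did not overlap for 7 of the 10, against 55.2% of all genes. The median log2 fold change was 0.49 over the 10 genes and -0.0034 over all genes. Without 24m replicate 1, 5 of the 10 genes were called higher, Olig2 being added, and at a log2 fold change of at least 1, 3 were, without Sox10. Adjusted p-values come from the quasi-likelihood test of edgeR with Benjamini-Hochberg adjustment over all genes tested, and levels are counts per 1e+06 (CPM) with library sizes scaled by trimmed mean of M values (TMM).

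Library totals were 63460940 to 103462414 counts, and 24m replicate 1 was the deepest. That library also stood apart within its age: it had the lowest 24m level of Pdgfra, Cspg4, Olig1, Olig2, Gpr17 and Myrf and the highest of Bcas1 and Neu4. Markers of the labelled tissue were present, with a summed level of 8 neuronal genes of 3599 to 4005 CPM at 6m and 4065 to 4226 CPM at 24m, ranges that do not overlap, and with 3 of them called higher and 1 lower (median 0.41). The summed level of 14 genes of myelinating oligodendrocytes was 3524 to 4486 CPM at 6m and 3592 to 4405 CPM at 24m, ranges that overlap. Of 8 astrocyte genes 5 were called higher and 0 lower (median 1.18), among them Aqp4 (1.92) and Slc1a3 (1.89), while their summed level was 2524 to 3309 CPM at 6m and 2370 to 3072 CPM at 24m. Most of that sum was 1 gene, Aldoc, at 2507 CPM at 6m and 2057 CPM at 24m on average (edgeR adjusted p = 0.129). The sum averaged 2847 CPM at 6m and 2613 CPM at 24m, so it says little of the other listed astrocyte genes. Aqp4, Slc1a3 and Aldoc were picked after their values were seen. Of 8 endothelial genes 1 was called higher and 2 lower (97.9 to 131.5 and 59.4 to 88.9 CPM), and of 8 microglial genes 2 higher and 0 lower (430.4 to 461.0 and 434.8 to 588.8 CPM). Without 24m replicate 1, 4 neuronal and 2 endothelial genes were called higher. With totals alone 4 neuronal, 3 microglial and 2 endothelial genes were called higher, and 0 neuronal genes lower. With the GC trend removed 1 microglial and 2 endothelial genes were called higher, and 0 neuronal and 3 endothelial genes lower. With the length trend removed 2 endothelial genes were called higher. The part of these cell types in the lineage genes was not tested.

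**Figure D1:**
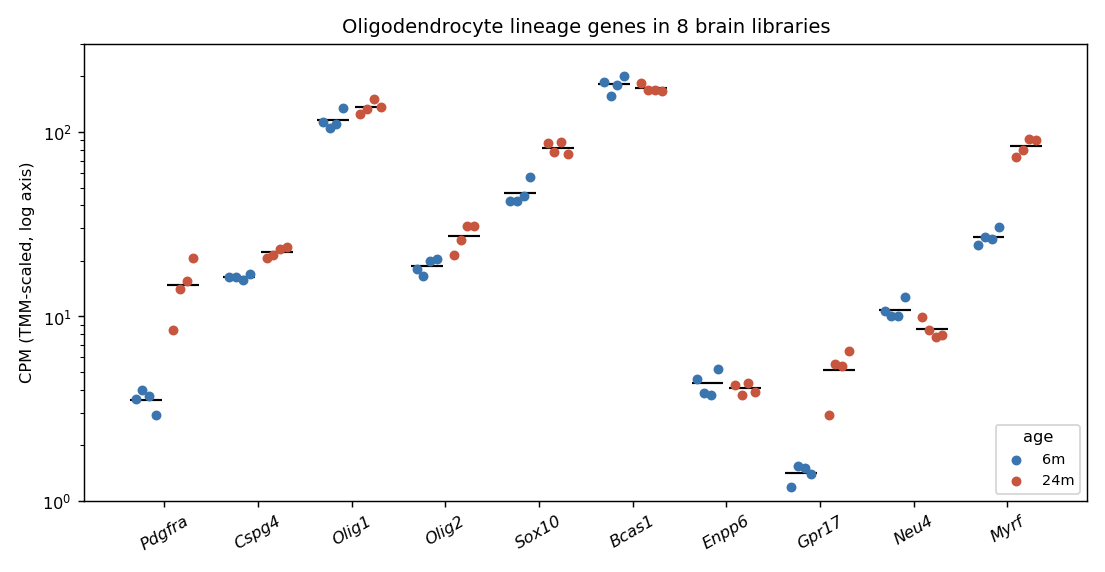
TMM-scaled CPM (log axis) of the 10 genes in each library, blue for 6m and red for 24m, with points of replicates 1 to 4 from left to right and a bar at the mean. The 24m points of Pdgfra, Gpr17, Sox10 and Myrf lie above every 6m point, while those of Olig1, Bcas1 and Enpp6 overlap.

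Stretches of 250 bases before the annotated start are shown for 3 genes that behaved differently: Myrf, which was called higher, Neu4, whose 24m level was lower, and Bcas1, whose ages overlapped. They were read from the GRCm39 genome at the start of the canonical GENCODE transcript, 5′ to 3′ on the strand of the gene. Capitals mark the letters CANNTG, the E-box read by basic helix-loop-helix factors such as Olig1 and Olig2, or the letters ACAAAG, a core read by Sox factors, on either strand. The Myrf window is chr19:10218162-10218411, minus strand, the Neu4 window is chr1:93947923-93948172, plus strand and the Bcas1 window is chr2:170269766-170270015, minus strand.
Myrf: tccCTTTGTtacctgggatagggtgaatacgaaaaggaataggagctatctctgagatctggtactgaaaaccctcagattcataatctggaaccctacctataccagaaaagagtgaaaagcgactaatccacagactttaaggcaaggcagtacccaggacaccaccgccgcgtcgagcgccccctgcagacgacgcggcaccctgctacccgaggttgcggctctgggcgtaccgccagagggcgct
Neu4: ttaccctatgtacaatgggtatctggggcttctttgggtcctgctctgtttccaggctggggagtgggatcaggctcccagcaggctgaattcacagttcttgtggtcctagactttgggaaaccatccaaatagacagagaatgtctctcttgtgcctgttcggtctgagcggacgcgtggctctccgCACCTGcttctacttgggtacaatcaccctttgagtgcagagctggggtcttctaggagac
Bcas1: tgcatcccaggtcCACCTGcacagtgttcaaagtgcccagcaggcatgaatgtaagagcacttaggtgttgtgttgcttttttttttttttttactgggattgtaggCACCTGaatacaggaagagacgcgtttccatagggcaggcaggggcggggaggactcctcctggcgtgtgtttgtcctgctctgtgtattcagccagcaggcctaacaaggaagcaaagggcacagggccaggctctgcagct

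The Myrf stretch holds the Sox letters on the other strand, printed as CTTTGT, at -247 from the start. The Neu4 stretch holds an E-box at -61, and that of Bcas1 holds 2, at -237 and -143. Among all 10 genes an E-box was found before Pdgfra (at -192), Sox10 (at -206), Gpr17 (at -230), Neu4 and Bcas1, and the Sox letters before Myrf alone. Of 21770 windows of the same length in the genome, 64.8% hold an E-box and 15.9% the Sox letters. E-boxes thus occur before genes that were called and before genes that were not.

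Of the surface molecules of the precursor cell, the receptor transcript was called higher and the proteoglycan transcript was not. Pdgfra (ENSMUSG00000029231, chr5:75311994-75358876) encodes the alpha receptor through which PDGF keeps precursors dividing. Its level was 3.55, 4.00, 3.70 and 2.94 CPM in 6m replicates 1 to 4 and 8.45, 14.0, 15.7 and 20.8 CPM in 24m replicates 1 to 4. The lowest aged library was still above the highest young one, and the aged libraries spread far more widely. Pdgfra rose 4.15-fold, from 3.55 ± 0.449 to 14.7 ± 5.09 CPM (mean ± SD, n = 4 per age), and its log2 fold change was 2.05 ± 0.25 (SE) at an edgeR adjusted p of 0.000152. The log2 fold change was 2.27 without 24m replicate 1 and 1.56 once the trend of counts over gene length was removed, and the gene was called in both.

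Cspg4 (ENSMUSG00000032911, chr9:56772317-56807187) encodes the NG2 proteoglycan of precursors, which pericytes carry as well. It measured 16.5, 16.4, 15.7 and 16.96 CPM in the 6m libraries and 20.6, 21.4, 23.2 and 23.8 CPM in the 24m libraries. The ages did not overlap and each was tight, but the log2 fold change of 0.44 ± 0.08 stayed under the fold threshold, at an edgeR adjusted p of 0.0016. This difference depended on the treatment of gene length: once the length trend was taken out, it stood at -0.0020 (edgeR adjusted p = 0.988). Cspg4 was called higher with libraries scaled by totals alone (0.66) and with the GC trend removed (0.62). The exons of Cspg4 together span 11964 bases and those of Pdgfra 12310 bases.

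Cells other than precursors can also hold these 2 transcripts, Pdgfra in fibroblasts of the brain coverings and vessels and Cspg4 in pericytes. The summed level of 8 fibroblast genes was 75.2 to 92.3 CPM at 6m and 78.9 to 94.1 CPM at 24m, with 2 genes called higher and 0 lower. With the length trend removed 1 fibroblast gene was called higher and 2 lower (median -0.28), and with the GC trend removed 1 in each direction. The summed level of 8 pericyte genes was 148.6 to 193.4 CPM at 6m and 107.0 to 142.0 CPM at 24m, with 3 genes called higher and 2 lower. Fibroblast sums thus overlapped between ages and pericyte sums were lower in every 24m library, with no listed gene of either at 0. The pericyte sum followed 1 abundant gene, Vtn: without it the sum was 24.25 to 29.7 CPM at 6m and 24.9 to 34.2 CPM at 24m, ranges that overlap. Their part in the levels of Pdgfra and Cspg4 was not tested.

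The other side of the receptor was measured through the 4 PDGF ligand genes and the second receptor. Pdgfa, the ligand that acts on the alpha receptor of precursors, was 63.1, 52.6, 60.1 and 69.5 CPM at 6m and 25.8, 26.1, 27.2 and 25.2 CPM at 24m. All 24m libraries lay far below all 6m libraries and close to each other. Pdgfa fell by 1.23 ± 0.10 on the log2 scale (edgeR adjusted p = 2.42e-05), while its receptor rose. Pdgfb, the ligand of the beta receptor made by endothelial cells, was 12.8 ± 1.62 CPM at 6m and 12.9 ± 1.46 CPM at 24m (edgeR adjusted p = 0.985). Of the ligands that need cleavage to act, Pdgfc differed by 0.73 ± 0.20 on the log2 scale (edgeR adjusted p = 0.0101) and Pdgfd by 0.81 ± 0.20 (0.00633), both called higher at levels of at most 2.39 CPM on average. Pdgfrb, the beta receptor of pericytes, went from 6.87 ± 0.711 to 13.5 ± 2.04 CPM (log2 fold change 0.97 ± 0.14, edgeR adjusted p = 0.000353). Pdgfc and Pdgfd lost their calls with the length trend removed (0.55 and 0.46) or the GC trend removed (0.48 and 0.52), and Pdgfc also under DESeq2 on quantile-normalized counts (0.42) or without 24m replicate 4 (0.55). Pdgfa and Pdgfrb were called in all of these.

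The 3 lineage transcription factors all had higher means at 24m, and 1 was called. Sox10 (ENSMUSG00000033006, chr15:79039108-79049469), the HMG-box factor that switches on myelin genes together with Myrf, was 42.1, 42.3, 45.2 and 57.1 CPM at 6m and 87.2, 77.9, 87.9 and 76.0 CPM at 24m. Every aged library exceeded every young one, 6m replicate 4 being the closest. Sox10 rose 1.76-fold, from 46.7 ± 7.07 to 82.3 ± 6.17 CPM (log2 fold change 0.82 ± 0.11, edgeR adjusted p = 0.000302). Schwann cells of nerve roots express Sox10 as well. Their 6 listed marker genes summed to 2.86 to 8.20 CPM at 6m and 2.39 to 13.1 CPM at 24m, which overlap, with 0 of the 5 tested genes called and Pmp2 too low to test. The highest sum was that of 24m replicate 1, and the other three aged libraries were at 2.39 to 3.42 CPM. The median of the 5 tested genes was 0.25 on the log2 scale and -0.34 without that library. With edgeR, 0 of these 5 genes had an unadjusted p under 0.05, and 0 passed an adjusted p of 0.05 under DESeq2 or limma-voom. The part of Schwann cells in the level of Sox10 was not tested.

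Olig2 (ENSMUSG00000039830, chr16:91019435-91025567), the basic helix-loop-helix factor that specifies the lineage, was 18.1, 16.7, 20.04 and 20.4 CPM at 6m and 21.6, 26.0, 31.0 and 31.1 CPM at 24m. The ages did not overlap, with 24m replicate 1 only just above the highest 6m library. The log2 difference of 0.54 ± 0.13 (edgeR adjusted p = 0.00518) missed the fold threshold narrowly. Olig2 passed it without 24m replicate 1 (0.66), without 6m replicate 4 (0.585), with the length trend (0.63) or the GC trend (0.74) removed, and with libraries scaled by totals alone (0.77). Its call therefore rests on the choice of scaling and of libraries.

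Olig1 (ENSMUSG00000046160, chr16:91066660-91068821), the paralog next to Olig2 that acts in maturation, was among the most abundant of the 10. It measured 113.9, 105.2, 110.7 and 134.7 CPM at 6m and 124.6, 132.8, 150.4 and 136.3 CPM at 24m. The ages overlapped because 6m replicate 4 exceeded 2 of the aged libraries. The log2 fold change of 0.23 ± 0.10 did not pass (edgeR adjusted p = 0.0656). It was 0.29 without 24m replicate 1 (edgeR adjusted p = 0.0109) and 0.70 with the length trend removed (0.000825), where the gene was called. The exons of Olig1 span 2162 bases, the fewest of the 10 genes.

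The 4 genes of the committed and newly formed stage did not move as one. Gpr17 (ENSMUSG00000052229, chr18:32076050-32082888), a G protein-coupled receptor that marks committed precursors and holds back their maturation, was 1.19, 1.56, 1.51 and 1.41 CPM at 6m and 2.94, 5.53, 5.42 and 6.51 CPM at 24m. All aged libraries were above all young ones, with 24m replicate 1 well below the other three. Gpr17 rose 3.60-fold, from 1.42 ± 0.163 to 5.10 ± 1.52 CPM (log2 fold change 1.85 ± 0.24, edgeR adjusted p = 0.000206). Its log2 fold change was 2.06 without 24m replicate 1. Behind these levels were 78 to 110 counts per library at 6m and 304 to 568 at 24m, the fewest of the 10 genes at 6m.

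Gpr17 lies inside Lims2 on the opposite strand, and the exons of the pair overlap by 320 bases. Lims2, an adaptor of integrin adhesions that is itself listed among newly formed cell genes, fell by 0.70 ± 0.12 on the log2 scale, from 33.3 ± 5.05 to 20.5 ± 1.60 CPM (edgeR adjusted p = 0.000858). It was under the fold threshold with totals alone (-0.48) and with the length (-0.48) or GC trend (-0.53) removed. The libraries were directional, but whether counting used the strand is not given in the sources used here. Reads of the overlap may thus have been counted for either gene or for neither. Their part in the levels of Gpr17 and Lims2 was not tested.

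Neu4 (ENSMUSG00000034000, chr1:93948173-93956056), a sialidase of newly formed oligodendrocytes, was 10.7, 9.999, 10.05 and 12.8 CPM at 6m and 9.98, 8.40, 7.73 and 7.98 CPM at 24m. The ages did not overlap, but 24m replicate 1 nearly touched 6m replicate 2. At -0.35 ± 0.13 on the log2 scale, Neu4 met the adjusted p (edgeR, 0.0337) and not the fold threshold. The sign was negative in all 18 alternatives and the adjusted p passed in 11 of them. Neu4 was called lower in 1, DESeq2 on quantile-normalized counts, at -0.61 on the log2 scale (DESeq2 adjusted p = 0.000726).

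Bcas1 (ENSMUSG00000013523, chr2:170188911-170269765) encodes a myelin-associated protein used to mark early myelinating cells. It was 186.4, 156.5, 180.7 and 200.5 CPM at 6m and 184.9, 169.5, 168.9 and 166.5 CPM at 24m, so that the young libraries enclosed all aged ones. On the log2 scale the difference was -0.07 ± 0.09 (edgeR adjusted p = 0.517). Enpp6 (ENSMUSG00000038173, chr8:47439919-47549797), a choline-specific phosphodiesterase that marks newly forming oligodendrocytes, was 4.59, 3.86, 3.75 and 5.20 CPM at 6m and 4.26, 3.77, 4.38 and 3.88 CPM at 24m. These ranges overlapped almost wholly, with a log2 difference of -0.10 ± 0.14 (edgeR adjusted p = 0.562). Under DESeq2 on quantile-normalized counts Enpp6 was at -0.45 (DESeq2 adjusted p = 0.0203), past the adjusted p and under the fold threshold. The sign of both genes flipped with libraries scaled by totals alone, which moved the median of all genes to 0.21: Bcas1 was then 0.15 and Enpp6 0.13.

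Myrf (ENSMUSG00000036098, chr19:10185634-10218161) encodes the membrane-bound factor that is cleaved to enter the nucleus and drive myelin genes. It had the smallest adjusted p of the 10 genes. Its level was 24.4, 27.0, 26.3 and 30.4 CPM at 6m and 73.2, 80.2, 91.6 and 90.2 CPM at 24m. All aged libraries lay far above all young ones. Myrf rose 3.10-fold, from 27.0 ± 2.52 to 83.8 ± 8.70 CPM (log2 fold change 1.63 ± 0.11, edgeR adjusted p = 1.66e-05). With the length trend removed, its value was 1.32 on the same log2 scale.

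**Figure D2:**
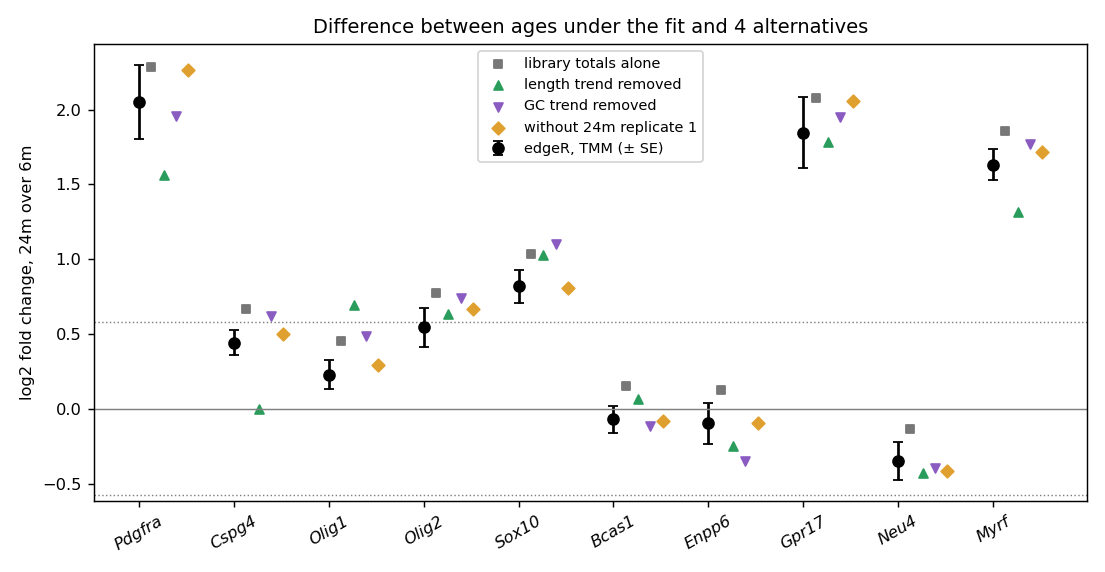
Log2 fold change of 24m over 6m for each gene from edgeR (black, ± SE, n = 4 per age) and under 4 alternatives, with dotted lines at the fold threshold. Pdgfra, Sox10, Gpr17 and Myrf lie above the line throughout, while Cspg4 drops to -0.0020 with the length trend removed.

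To order the levels of different genes, they were set side by side per exonic length, as RPKM, the CPM per kilobase of exon. At 6m the order ran from Olig1 (53.7 ± 5.96 RPKM) and Bcas1 (48.0 ± 4.86) through Sox10 (14.0 ± 2.12), Olig2 (4.54 ± 0.418), Myrf (3.13 ± 0.292), Neu4 (1.97 ± 0.234), Cspg4 (1.37 ± 0.0444) and Enpp6 (0.678 ± 0.106) to Pdgfra (0.288 ± 0.0365) and Gpr17 (0.262 ± 0.0303). Of neighbours in this order, Olig1 and Bcas1 overlapped between libraries, as did Pdgfra and Gpr17, and the others did not. At 24m Olig1 (62.9 ± 4.97 RPKM), Bcas1 (45.7 ± 2.23) and Sox10 (24.7 ± 1.85) led again and did not overlap. Myrf (9.72 ± 1.01) stood above Olig2 (6.63 ± 1.09), without overlap and in the opposite order from 6m. Below them Cspg4 (1.86 ± 0.123), Neu4 (1.54 ± 0.183), Pdgfra (1.197 ± 0.413), Gpr17 (0.945 ± 0.283) and Enpp6 (0.635 ± 0.0460) each overlapped the next, and Enpp6 had moved to the last place.

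**Figure D3:**
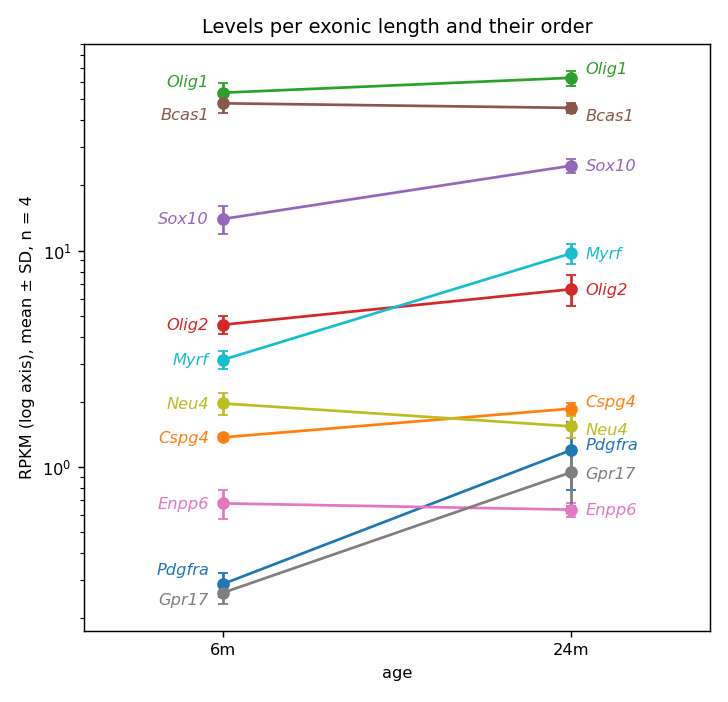
Mean RPKM (log axis, ± SD, n = 4 per age) of each gene at 6m and 24m, joined by lines. Myrf crosses Olig2, Pdgfra and Gpr17 cross Enpp6, and Neu4 and Cspg4 change places.

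Ratios between genes within a library, which no scaling of libraries alters, were taken to describe the balance between stages. They were not tested, they follow from the fold changes given above, and their size reflects gene length as well as level. Removal of a trend over gene length or GC content moves each gene by its own amount and would alter them. The log2 ratio of Myrf to Sox10 counts was -0.79, -0.65, -0.78 and -0.91 at 6m and -0.25, 0.04, 0.06 and 0.25 at 24m. The ratio was higher in every aged library than in any young one. The log2 ratio of Gpr17 to Pdgfra was -1.58, -1.36, -1.29 and -1.06 at 6m and -1.52, -1.35, -1.53 and -1.67 at 24m, and these ranges overlapped although both genes rose. The ratio of Myrf to Gpr17 overlapped too, with means of 4.26 at 6m and 4.09 at 24m.

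Most ratios that follow set a gene that was not called, and had the smaller fold change, against one called higher. A fall in these was fixed in advance, so they show only the size of the shift in each library. The ratio of Olig1 to Olig2, near the end, pairs genes neither of which was called. The log2 ratio of Neu4 to Pdgfra was 1.59, 1.32, 1.44 and 2.12 at 6m and 0.24, -0.74, -1.02 and -1.38 at 24m. The log2 ratio of Enpp6 to Gpr17 was 1.95, 1.31, 1.31 and 1.89 at 6m and 0.54, -0.55, -0.31 and -0.75 at 24m. Neither pair overlapped between ages, and in both 24m replicate 1 was nearest to the young libraries. The mean log2 ratio of Bcas1 to Sox10 went from 1.96 to 1.07 and that of Enpp6 to Sox10 from -3.43 to -4.34, also without overlap. Within the precursor pair the mean log2 ratio of Cspg4 to Pdgfra went from 2.22 to 0.66, without overlap. Among the transcription factors the means for Olig1 to Olig2 (2.62 and 2.32) and Sox10 to Olig2 (1.30 and 1.60) lay in overlapping ranges.

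**Figure D4:**
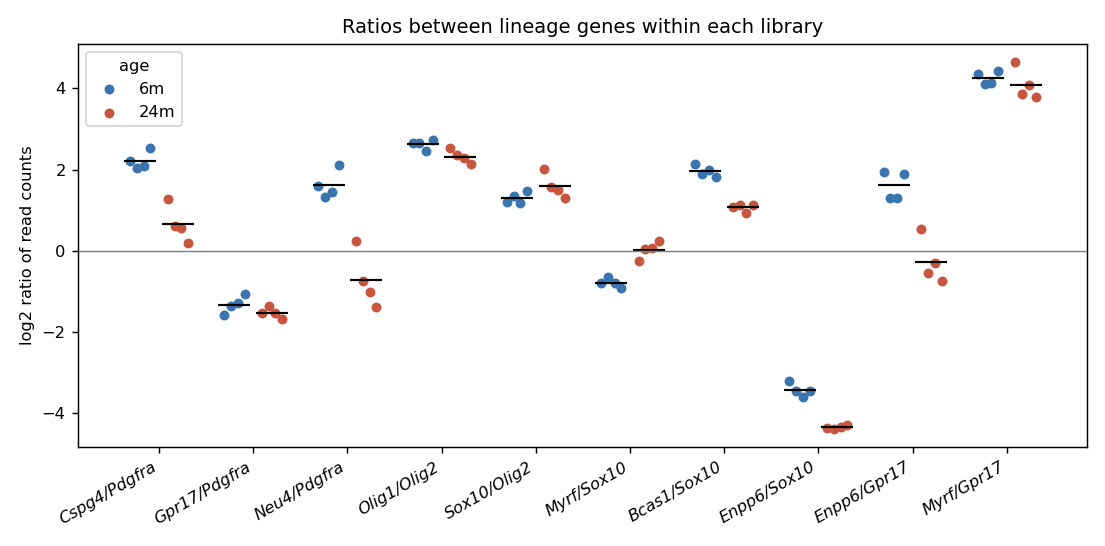
Log2 ratios of read counts for 10 pairs of genes in each library, blue for 6m and red for 24m, with a bar at the mean. The ages are apart for Neu4/Pdgfra, Enpp6/Gpr17, Myrf/Sox10 and Bcas1/Sox10 and overlap for Gpr17/Pdgfra, Olig1/Olig2, Sox10/Olig2 and Myrf/Gpr17.

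Other genes of the lineage were read from lists, with genes named by the largest and smallest called change and, where few were called, all of them, the latter chosen after their values were seen. Of 16 other precursor genes, 8 were called higher and 3 lower, and the list's median was 0.51 on the log2 scale. Without 24m replicate 1, 10 were called higher. Among all genes 25.3% were called higher and 18.3% lower. The list's share called lower was near that of all genes and its share called higher was above it. The list was chosen with earlier results of these data known. The largest called change was that of Sox6 (2.39 ± 0.44), a SoxD factor of precursors, at 0.422 CPM at 6m and 2.21 CPM at 24m (edgeR adjusted p = 0.00127). The genes called lower were Matn4 (-0.75 ± 0.12), a matrix protein, C1ql1 (-0.74 ± 0.16), a secreted C1q-like protein, and Emid1 (-0.64 ± 0.16). Scaling by totals alone left 0 of the 3 called lower, removal of the GC trend left 1, Matn4, and removal of the length trend took C1ql1 to -0.26. Emid1 lost its call also without 6m replicate 1 (-0.57) and without 24m replicate 4 (-0.55).

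Of 14 other genes of committed and newly formed cells, 5 were called higher and 2 lower (median -0.05). Tns3, a focal adhesion protein of newly formed oligodendrocytes, had the largest change (1.93 ± 0.22, edgeR adjusted p = 0.000114), and the other genes called higher were Casr, Cemip2, Mycl and Cnksr3, at 0.67 to 1.70. Cnksr3 lost its call under DESeq2 on quantile-normalized counts (0.39) and with the length trend removed (0.54). Bmp4, a signal that newly committed cells secrete, had the smallest (-1.08 ± 0.21, edgeR adjusted p = 0.00177) and Lims2 was the other gene called lower. The called-lower count was 4 under DESeq2 on quantile-normalized counts and 1 with totals alone or the GC trend removed. With the length trend removed it was 3, Bmp4 (-1.13), Itpr2 (-0.97) and Tmem163 (-0.81), while Lims2 lost its call (-0.48).

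Of 14 regulators that promote differentiation, 7 were called higher and 1 lower (median 0.30). Their summed level went the other way, at 716.9 to 825.9 CPM at 6m and 625.4 to 683.4 CPM at 24m, ranges that do not overlap. The most abundant of them, Smarca4, went from 395.9 to 271.9 CPM (-0.54 ± 0.09, edgeR adjusted p = 0.000608), under the fold threshold. Smarca4 was picked after its value was seen. Zfp488, a zinc finger partner of Olig2, had the largest change (1.33 ± 0.26, edgeR adjusted p = 0.00191). Nkx6-2, a homeobox factor of oligodendrocytes, was the gene called lower (-0.60 ± 0.16, edgeR adjusted p = 0.00948). It sat at the fold threshold and lost its call in 8 of 18 alternatives, and with the length trend removed it was -0.10 while 3 genes of the list were called lower. Of 8 regulators that restrain differentiation, 1 was called higher and 2 lower (median -0.16). Notch1, the receptor that holds precursors undifferentiated, was called higher (1.19 ± 0.16, edgeR adjusted p = 0.000291). Hes1, a target of Notch signalling, was called lower (-0.88 ± 0.12, edgeR adjusted p = 0.000239), as was Sox5 (-0.75 ± 0.15), the SoxD relative of Sox6, which lost its call with totals alone (-0.52). Notch1 and Hes1 thus differed in direction, while Hes5, also on the list, was not called (-0.31 ± 0.13, edgeR adjusted p = 0.0551). The lysate does not tell which cells these transcripts came from, and a link between them was not tested. In this list 2 genes were called higher under DESeq2 on quantile-normalized counts, totals alone, the GC trend removed or without 24m replicate 1.

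Of 14 genes of myelinating oligodendrocytes, which hold known targets of Sox10 and Myrf, 2 were called higher and 0 lower (median -0.03). The 2 were Ugt8a (1.60 ± 0.28), the enzyme of galactosylceramide synthesis and Mal (0.62 ± 0.15), a membrane raft protein of myelin. Mal lost its call with the GC trend removed (0.53) and without 24m replicate 4 (0.52). Mbp, a protein of compact myelin, was 2060 ± 263.3 CPM at 6m and 2061 ± 161.6 CPM at 24m (edgeR adjusted p = 0.997) and was picked after its value was seen. It was at 0.44 on the log2 scale under DESeq2 on quantile-normalized counts (DESeq2 adjusted p = 1.1e-07), 0.22 with totals alone (edgeR adjusted p = 0.0377) and -0.36 with the length trend removed (0.0677), so its direction depended on the processing. At an adjusted p of 0.05 without the fold threshold, 3 of the 14 genes passed, the third being Hapln2 (-0.54), the 1 gene lower at an unadjusted p under 0.05. The count called lower was 1 with the length trend removed or without 6m replicate 2 (Hapln2) and without 24m replicate 1 (Opalin, a membrane protein of mature oligodendrocytes).

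**Figure D5:**
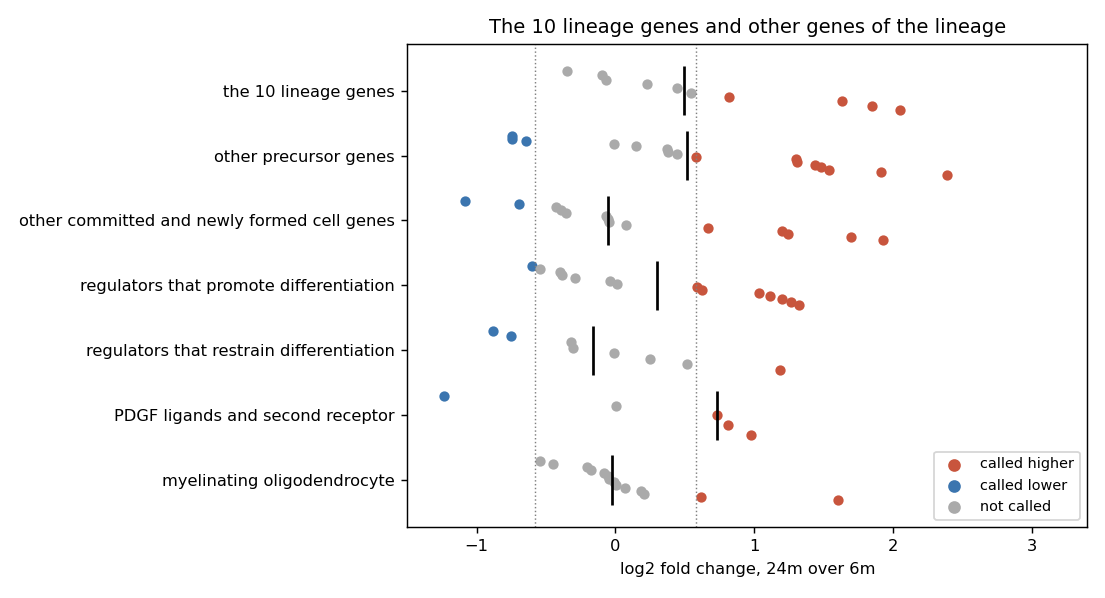
Log2 fold change of 24m over 6m for the 10 genes and for 6 lists of other lineage genes, 1 point per tested gene, with the list's median as a black bar and dotted lines at the fold threshold. The medians run from -0.16 to 0.73, and every list except the 10 genes and the myelin list has genes called in both directions.

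Genes that overlap the 10 or lie within 20 kb of them were read from the annotation, since shared reads or shared positions bear on single values. Of 38 such genes 13 were in the table and 12 were tested, with 4 called higher and 3 lower, shares not far from those of all genes (25.3% and 18.3%). Tmem258, a subunit of the enzyme of N-glycosylation, lies 446 bases from Myrf on the opposite strand and fell by 0.98 ± 0.20 on the log2 scale (edgeR adjusted p = 0.00246). Also within 20 kb of Myrf, Dagla, a diacylglycerol lipase of endocannabinoid synthesis, rose by 2.00 ± 0.17 (3.40e-05) and Fads1, a fatty acid desaturase, by 0.80 ± 0.09 (9.25e-05), while Fen1, a flap endonuclease, was at 0.21 (0.0704).

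Near Sox10, Polr2f, a subunit of RNA polymerases, fell by 1.17 ± 0.21 on the log2 scale (edgeR adjusted p = 0.00122) and Micall1, an endosomal protein, rose by 1.36 ± 0.19 (0.000342), while 1700088E04Rik was at -0.56 ± 0.12 (0.00256), under the fold threshold. Pdcd1, an immune checkpoint receptor 9971 bases from Neu4, rose by 3.19 ± 0.41 from 0.0842 to 0.773 CPM (0.000208). Near Cspg4, Snx33 was at 0.50 ± 0.15 (0.0154) and Cimap1c at -0.21 (0.629), and near Gpr17, Myo7b was at -0.27 (0.345), none of them called. No neighbour of Pdgfra, Olig1, Olig2, Bcas1 or Enpp6 was tested.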

How the data were processed

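Brain hemisphere RNA of 4 mice of 6m and 4 of 24m, 1 animal per library, was sequenced as directional poly(A) libraries. Per the submitters' processing notes the authors used Trim Galore 0.4.11, HISAT2 2.1.0 and GRCm39, and the study's methods name featureCounts. The deposited values are whole-number counts per gene, not normalized, and strand and multimapping settings are not given in the sources used here. Identifiers were matched to GENCODE (22281 of 22430). Tested genes had over 5 counts in 4 or more libraries (edgeR 4.0.16 in R 4.3.3, TMM factors, age as the only term). The thresholds were those of the study. Libraries of one age never agreed within sampling noise (12 pairs). RPKM used union exon lengths, and promoter windows the GRCm39 genome. A trend over length or GC content was removed with a loess offset (span 0.5) per library. Alternatives were DESeq2 1.42.0, limma-voom (limma 3.58.1), other scalings and filters, a higher fold threshold, trend removal, a replicate block and each library left out. The fit was tested on simulated data. The 10 genes and all lists were chosen with earlier results of these data known. Named genes were the 10, the largest and smallest called change of each lineage list, the PDGF genes and neighbours within 20 kb, and others were picked after their values were seen. 1 gene of a context list is not reported here.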

Additional observations from a re-analysis of the deposited data

Results flagged for a closer look

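Among the 4 aged libraries, 24m replicate 1 held Bcas1 at 185 CPM, apart from the other three at 166.5 to 169.5 CPM by more than the usual limit for the gap of an extreme sample (Dixon's test at 95%). It lay within the range of the young libraries. In all, 20 groups of 1 gene at 1 age were examined, and chance flags about 1 in 20.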

How the results depend on the processing

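Pdgfra (1.56 to 2.29), Sox10 (0.77 to 1.10), Gpr17 (1.51 to 2.08) and Myrf (1.32 to 1.86) were called higher in all 18 alternatives at the same fold threshold, and at a log2 fold change of at least 1 the count called was 3, without Sox10. The count called higher was 6 with totals alone or the length or GC trend removed, 5 without 6m replicate 4 or 24m replicate 1 and 4 in the others, and the count called lower was 1 under DESeq2 on quantile-normalized counts (Neu4). Directions turned for Cspg4 with the length trend removed (-0.0020), for Bcas1 under DESeq2 on quantile-normalized counts (0.071), totals alone (0.15) and length trend removed (0.064), and for Enpp6 with totals alone (0.13) and without 6m replicate 4 (0.0015, where leaving out single libraries gave -0.16 to 0.0015). The cause was not tested. Replicate numbers only name the samples, since deviations of same-numbered libraries correlated at 0.27, 0.14, 0.08 and -0.35 and 2 of 8 libraries correlated best with their own number. With the replicate block 4 of the 10 genes were called higher. Context list counts under the alternatives were computed after seeing the data, as was the pericyte sum without Vtn. At 6m Gpr17 rested on 78 to 110 counts per library.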
